A study of Mus musculus with 4 samples.

Results

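The HOX genes of mouse kidney cortex were followed over 23 clusters of nuclei in 4 single-nucleus RNA libraries. Members were all gene symbols of the deposited table that consist of Hox, 1 of the letters a to d and a number, with no further suffix. There were 23 such genes of 21046: 6 of the Hoxa, 8 of the Hoxb, 4 of the Hoxc and 5 of the Hoxd complex. The rule used names and no measured value. HOX genes outside this set were not analysed here.

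Nuclei came from pieces of renal cortex of C57BL/6J mice and were profiled with the 10X Chromium system, in which each RNA molecule carries a unique molecular identifier (UMI). There was 1 library for each of 4 genotypes. The control was Klf4flox/flox, in which the gene of the transcription factor Klf4 is flanked by recombination sites. The second, here called Klf4 dEC, was labelled Klf4deltaEC, a deletion of Klf4 in endothelial cells. The third, here called Nos3 null, was labelled Nos3-/- and lacks endothelial nitric oxide synthase by its label. The fourth, Klf4 dEC Nos3 null, carried both labels. The sources used here do not give the Cre line that made the deletion, the ages of the mice, or whether a library holds 1 mouse or several. Values of the 4 libraries are given below in this order, called the library order. Because no genotype has a second library, all errors are SDs over 4 libraries that differ in genotype (n = 4), and no difference has a test.

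HOX genes encode homeodomain transcription factors. They lie in 4 complexes, and the order of genes in a complex follows the order in which they are switched on along the body axis of the embryo, with low paralog numbers in front. HOX proteins bind DNA together with the TALE homeodomain proteins of the PBX and MEIS families, and Polycomb and trithorax proteins keep their complexes silent or active. In the embryonic kidney the paralogs of group 11 are needed for the ureteric bud to form. The podocyte, the proximal tubule, the loop of Henle, the distal convoluted tubule and the connecting tubule come from the metanephric mesenchyme. The collecting duct, with its principal and intercalated cells, comes from the ureteric bud, in which Hoxb7 is a classical marker.

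Promoters of 3 genes are shown because each gene had the highest class level among the members of its complex with an entry. They were Hoxa9, low in principal cell-like nuclei, Hoxb4, high in the distal segments, and Hoxd8, highest in the distal convoluted tubule. RefSeq gave promoter entries for 13 of 23 members. Each line is the 250 bases before the annotated start on the gene's own strand, 5′ to 3′, in build GRCm38.p6: chr6:52227371-52227620 on the minus strand for Hoxa9, chr11:96318017-96318266 on the plus strand for Hoxb4 and chr2:74704365-74704614 on the plus strand for Hoxd8. Capitals mark matches to 4 motifs searched on both strands, which overlapped nowhere in these lines.
Hoxa9: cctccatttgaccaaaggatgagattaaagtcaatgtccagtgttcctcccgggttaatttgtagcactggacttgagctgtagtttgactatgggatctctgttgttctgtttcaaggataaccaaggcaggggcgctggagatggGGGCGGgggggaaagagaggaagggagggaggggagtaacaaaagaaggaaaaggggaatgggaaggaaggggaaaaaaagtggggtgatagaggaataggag
Hoxb4: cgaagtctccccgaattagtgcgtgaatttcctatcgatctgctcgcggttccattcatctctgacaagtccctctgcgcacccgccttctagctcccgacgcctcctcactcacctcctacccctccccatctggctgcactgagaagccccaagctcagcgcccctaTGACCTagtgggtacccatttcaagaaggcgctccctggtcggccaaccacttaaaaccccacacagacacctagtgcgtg
Hoxd8: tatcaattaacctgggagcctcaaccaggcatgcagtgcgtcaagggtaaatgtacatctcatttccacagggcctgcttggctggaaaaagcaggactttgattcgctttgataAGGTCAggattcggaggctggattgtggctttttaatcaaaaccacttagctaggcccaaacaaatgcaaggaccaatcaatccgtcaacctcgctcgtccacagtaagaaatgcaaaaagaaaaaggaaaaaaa
The motifs were TGATNNAT (a joint HOX and PBX site), TTTATNG (a CDX site), AGGTCA (the core of retinoic acid receptor sites) and CCGCCC (the GC box of SP factors). Among these lines, AGGTCA or its complement stood in Hoxb4 at bases 170 to 175 and in Hoxd8 at bases 116 to 121, and the GC box in Hoxa9 at bases 148 to 153, counted from the first base printed. Of 13 member promoters, 5 held AGGTCA, 6 the GC box, 3 the HOX and PBX site and 1 the CDX site. Over 32851 mouse promoters of the same length the shares were 14%, 32.7%, 7.68% and 9.81% in that order. GC content was 49.6% in Hoxa9, 58% in Hoxb4 and 44.4% in Hoxd8, against a median of 52.4% over all promoters. CG pairs numbered 3, 14 and 6 against a median of 6. A match describes the letters and shows no binding.

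The table gives mean UMIs per 10000 UMIs of a nucleus for each cluster and library, and every level below is on that scale. From the arithmetic of the lowest values, 26144 nuclei were inferred, 6766, 6883, 7004 and 5491 in library order. A nuclei-weighted median of cluster medians was inferred the same way, from nuclei that held the only UMI of a gene in their cluster. By this measure a nucleus had about 4481, 4483, 2729 and 5057 UMIs, so the Nos3 null library was the shallowest. In that library the summed level of 10 proximal tubule markers was also the highest of the 4 in several other classes, though not in stromal cell-like or cycling cell-like nuclei or clusters 7 and 12: it was 42.4 in principal cell-like nuclei against 8.41 to 12.8 in the others, while in proximal tubule-like nuclei it was 148 against 144 to 175. Endothelial Klf4 was 0.621, 0.779, 0.445 and 0.824 in library order and endothelial Nos3 was 1.26, 0.930, 1.52 and 2.07. Neither gene was lower where its label gives a deletion, the labels do not say which part was removed, and tags outside that part check nothing. Libraries are therefore called by their labels. Barcodes shared between libraries were not counted, because the table holds averages.

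Clusters were named by marker genes, as podocyte-like (cluster 15), proximal tubule-like (0, 1, 3, 5 and 6), thin limb-like (18), thick ascending limb-like (2, 4 and 19), distal convoluted tubule-like (9), connecting tubule-like (11), principal cell-like (8), intercalated cell-like (14 and 16), urothelium-like (20), endothelial cell-like (10), stromal cell-like (13) and cycling cell-like (22). Clusters 7, 12, 17 and 21 stayed unnamed. Some named clusters also scored for a second type. Cluster 18 scored 3.35 for thin limb and 2.52 for parietal epithelium markers. Cluster 11 scored 2.88 for connecting tubule and 1.72 for distal convoluted tubule markers. The urothelium-like class held 12 nuclei in the Nos3 null library and the cycling class 58 in all. The level that 3 counts give, summed over libraries, ran from 0.00062 in proximal tubule-like to 0.106 in cluster 21. Clusters were made from all genes, so differences between them are described and not tested.

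Of the 23 members, 22 reached 3 counts in at least 1 cluster, and 5 (Hoxa7, Hoxb3, Hoxb4, Hoxb5 and Hoxb6) were above 0 in all 92 columns of cluster and library. Hoxa11, a paralog of the group needed for kidney formation, did not reach 3 counts, with about 11.6 UMIs in all. A level of 0.2 was reached in some cluster by 17 members. Of the members that did not reach it, Hoxa2, a gene of the second pharyngeal arch, was at most 0.0682 (cluster 18), Hoxa11 at most 0.0245 (cluster 21), Hoxc10 at most 0.0411 (cluster 13), Hoxc11 at most 0.0342 (cluster 3) and Hoxd10 at most 0.188 (cluster 17). The highest Hoxc10 level came from 1 library, with 0.164 in Klf4 dEC Nos3 null and 0 in the other 3. Which strand the counting used is stated nowhere in these sources. Annotated spans were shared on the opposite strand by 9 members and on the same strand by 3 (Hoxc5, Hoxc10 and Hoxd3), so their UMIs cannot be told apart from those of the partner. Hoxb6 (chr11:96292476-96301569 in GRCm38, plus strand) lies whole within the span of the antisense RNA gene Hoxb5os.

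Along the nephron, the HOX genes did not share a common order of cell classes, and orders differed between complexes and also within them. Most Hoxb genes were low in podocyte-like and proximal tubule-like nuclei and higher from the thin limb onward. The Hoxa genes were spread over most classes and low in principal cell-like nuclei. Hoxc4 and Hoxc5 were high in connecting tubule-like, thin limb-like, podocyte-like and stromal cell-like nuclei and near their lowest in principal cell-like nuclei. Hoxd3, Hoxd8 and Hoxd9 were highest in the distal segments.

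**Figure D1:**
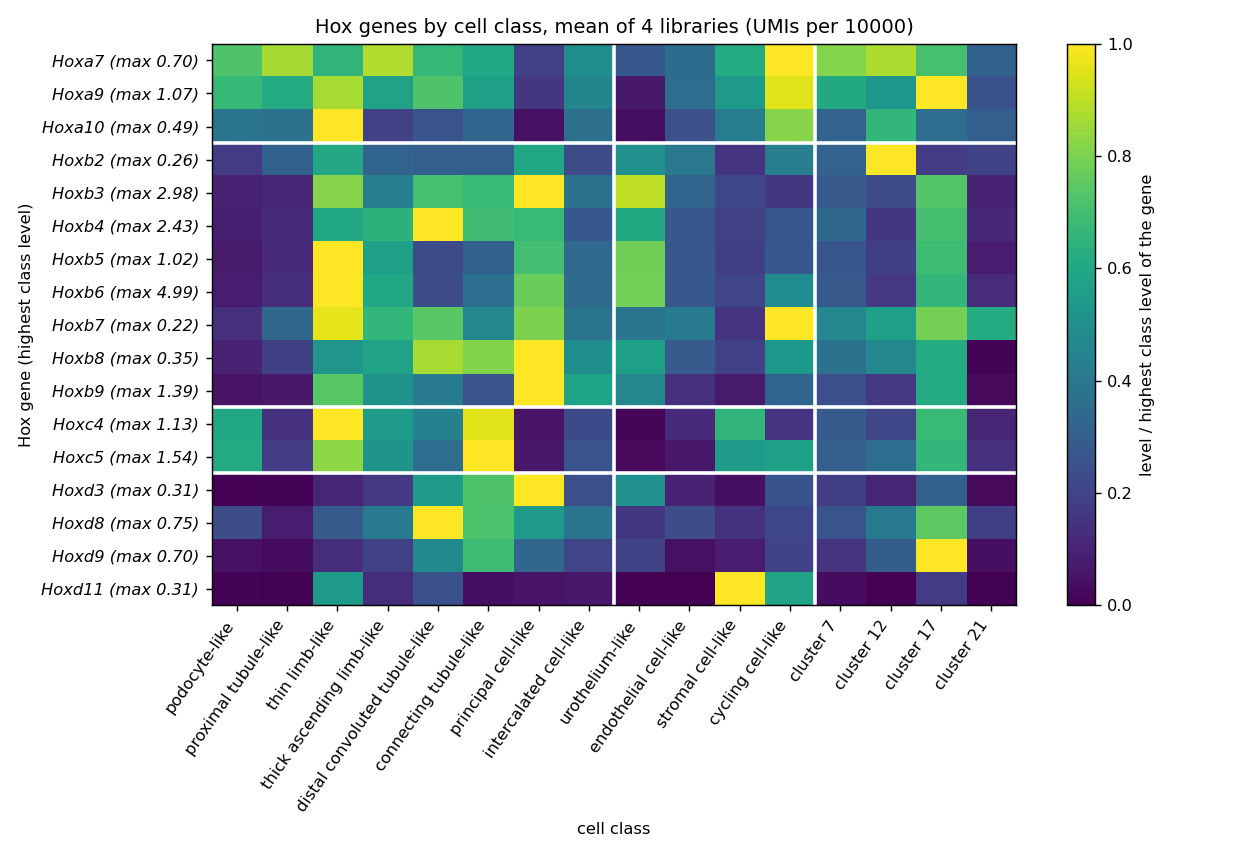
Levels of the 17 Hox genes that reach 0.2 UMIs per 10000 in a cluster, by cell class, as the mean of 4 libraries divided by the gene's own highest class level (color, 0 to 1). Rows are genes grouped by complex with the highest class level in UMIs per 10000, and columns are 8 nephron and collecting duct classes, 4 other classes and 4 unnamed clusters. Most Hoxb rows are dark in the 2 leftmost columns, and Hoxa and Hoxc rows are dark in the principal cell-like column.

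Summed over the 8 Hoxb genes, the level was 1.03, 0.933, 1.66 and 0.968 in podocyte-like nuclei in library order. In proximal tubule-like nuclei it was 1.62, 1.22, 2.14 and 1.84. Principal cell-like nuclei had 11.3, 11, 11.5 and 11.1, a mean of 11.2 ± 0.244 (SD, n = 4). All 4 principal cell-like values therefore lay far above all values of the first 2 classes. The other means were 11.5 ± 2.69 in thin limb-like, 7.56 ± 0.720 in thick ascending limb-like, 7.07 ± 0.586 in distal convoluted tubule-like, 6.66 ± 0.741 in connecting tubule-like and 4.99 ± 0.431 in intercalated cell-like nuclei (n = 4 each).

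Hoxb6, an early gene of lateral plate mesoderm, stood at 6.02, 2.78, 5.64 and 5.53 in thin limb-like nuclei (mean 4.99 ± 1.49, n = 4), at 3.84, 3.02, 4.89 and 3.67 in principal cell-like nuclei and at 2.78, 2.37, 4.00 and 2.84 in thick ascending limb-like nuclei. Proximal tubule-like nuclei had 0.491, 0.416, 1.01 and 0.682. Podocyte-like nuclei, at 0.205, 0.314, 0.687 and 0.366, were the lowest of 10 classes with at least 50 nuclei in every library. Ranked by mean, thick ascending limb-like nuclei and the next class, connecting tubule-like nuclei (1.82 ± 0.346), were the only neighbors whose ranges over libraries did not overlap. The urothelium-like value of 3.92 ± 2.64 rests on 7.86 in the 12 Nos3 null nuclei against 2.24 to 2.83 in the other libraries.

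Hoxb3, a paralog of group 3, followed a similar order with its top in principal cell-like nuclei. Its level was 3.21, 2.89, 3.05 and 2.77 in principal cell-like nuclei against 0.382, 0.224, 0.383 and 0.294 in proximal tubule-like nuclei. Hoxb4, known for expanding blood stem cells when overexpressed, had its top in distal convoluted tubule-like nuclei instead, at 2.60, 1.95, 2.38 and 2.77 (mean 2.43 ± 0.355), and its lowest level in podocyte-like nuclei, 0.216 ± 0.0832. Its chromosome 11 promoter is the second line above. Hoxb5 was 1.02 ± 0.353 in thin limb-like, 0.712 ± 0.142 in principal cell-like and 0.121 ± 0.0318 in proximal tubule-like nuclei.

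Hoxb9, a gene of thoracic patterning, separated the principal cell from the connecting tubule. Its levels were 1.00, 1.74, 1.38 and 1.44 in principal cell-like and 0.241, 0.204, 0.491 and 0.5 in connecting tubule-like nuclei, with no overlap. Proximal tubule-like nuclei had 0.0929 ± 0.0298. Hoxb8 was highest in principal cell-like nuclei at 0.348 ± 0.122 and stood at 0.0656 ± 0.0139 in proximal tubule-like nuclei. Hoxb7, the ureteric bud marker, reached at most 0.219, in the 58 cycling cell-like nuclei, with 0.211 ± 0.211 in thin limb-like, 0.176 ± 0.0316 in principal cell-like, 0.145 ± 0.0170 in thick ascending limb-like and 0.0735 ± 0.0214 in proximal tubule-like nuclei. Hoxb2, a hindbrain gene, reached its top of 0.26 in unnamed cluster 12 and was 0.156 ± 0.111 in principal cell-like nuclei.

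The Hoxa genes gave nearly the reverse picture in principal cell-like nuclei. Hoxa9, a gene of the thoracic and lumbar levels, stood at 0.725, 0.649, 0.730 and 0.526 in proximal tubule-like nuclei and at 0.154, 0.130, 0.315 and 0.0958 in principal cell-like nuclei, with no overlap. Among the 10 classes with at least 50 nuclei in every library, the other means ran from 0.931 ± 0.0730 in thin limb-like to 0.383 ± 0.0923 in endothelial cell-like nuclei. No 2 neighbors in that order had ranges that were apart. Outside these classes, urothelium-like nuclei had a summed Hoxa level of 0.287 ± 0.102, against 0.357 ± 0.182 in principal cell-like nuclei. Hoxa7 was 0.570, 0.524, 0.701 and 0.622 in proximal tubule-like against 0.142, 0.106, 0.216 and 0.0889 in principal cell-like nuclei. For both genes the highest principal cell-like value was that of the Nos3 null library, where proximal tubule markers were also highest in that class. The part of those markers in the result was not tested. Hoxa10, needed for uterine patterning, was highest in thin limb-like nuclei, 0.488 ± 0.153, against 0.183 ± 0.0157 in proximal tubule-like and 0.0221 ± 0.02 in principal cell-like nuclei.

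Hoxc4 and Hoxc5, neighbors on chromosome 15 known for cervical patterning, moved almost as 1 gene. Hoxc5 was highest in connecting tubule-like nuclei, at 1.93, 1.23, 1.26 and 1.74 (mean 1.54 ± 0.347). In principal cell-like nuclei it stood at 0.0420, 0.101, 0.185 and 0.0626. The 2 classes are adjacent in the tubule, and every connecting tubule-like value was more than 1 and every principal cell-like value less than 0.2. Unnamed cluster 17 scored 2.08 for principal cell and 2.02 for connecting tubule markers. Its Hoxc genes summed to 1.81, against 2.64 in connecting tubule-like and 0.157 in principal cell-like nuclei. Hoxc5 was 0.982, 1.25, 0.888 and 0.630 in podocyte-like nuclei and 0.710, 0.727, 0.975 and 0.973 in stromal cell-like nuclei. Hoxc4 was 1.13 ± 0.264 in thin limb-like, 1.08 ± 0.123 in connecting tubule-like, 0.745 ± 0.450 in stromal cell-like, 0.674 ± 0.178 in podocyte-like and 0.0583 ± 0.0213 in principal cell-like nuclei. The annotated span of Hoxc5 (chr15:102967443-103017429, plus strand) covers 4451 bases of Hoxc10 and other genes of the complex not analysed here, so UMIs counted as Hoxc5 may belong to a neighbor.

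Among the Hoxd genes, Hoxd8 had its highest class average in distal convoluted tubule-like nuclei, at 0.694, 0.963, 0.425 and 0.934, against 0.0489, 0.0524, 0.0574 and 0.0739 in proximal tubule-like nuclei. The span of Hoxd8 lies whole within that of its antisense neighbor Hoxd3os1. Hoxd9 was highest among the named classes in connecting tubule-like nuclei, 0.479 ± 0.219, and Hoxd3 in principal cell-like nuclei, at 0.206, 0.298, 0.390 and 0.350. Proximal tubule-like nuclei had 0.0228 ± 0.00502 and 0.00355 ± 0.00244 of these genes. Hoxd11, of the kidney-forming group, differed from the rest of its complex: it was highest in stromal cell-like nuclei, at 0.126, 0.267, 0.461 and 0.373, with 0.168 ± 0.147 in thin limb-like and 0.00145 ± 0.000551 in proximal tubule-like nuclei. Stromal cell-like nuclei held about 47.4 of its UMIs.

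**Figure D2:**
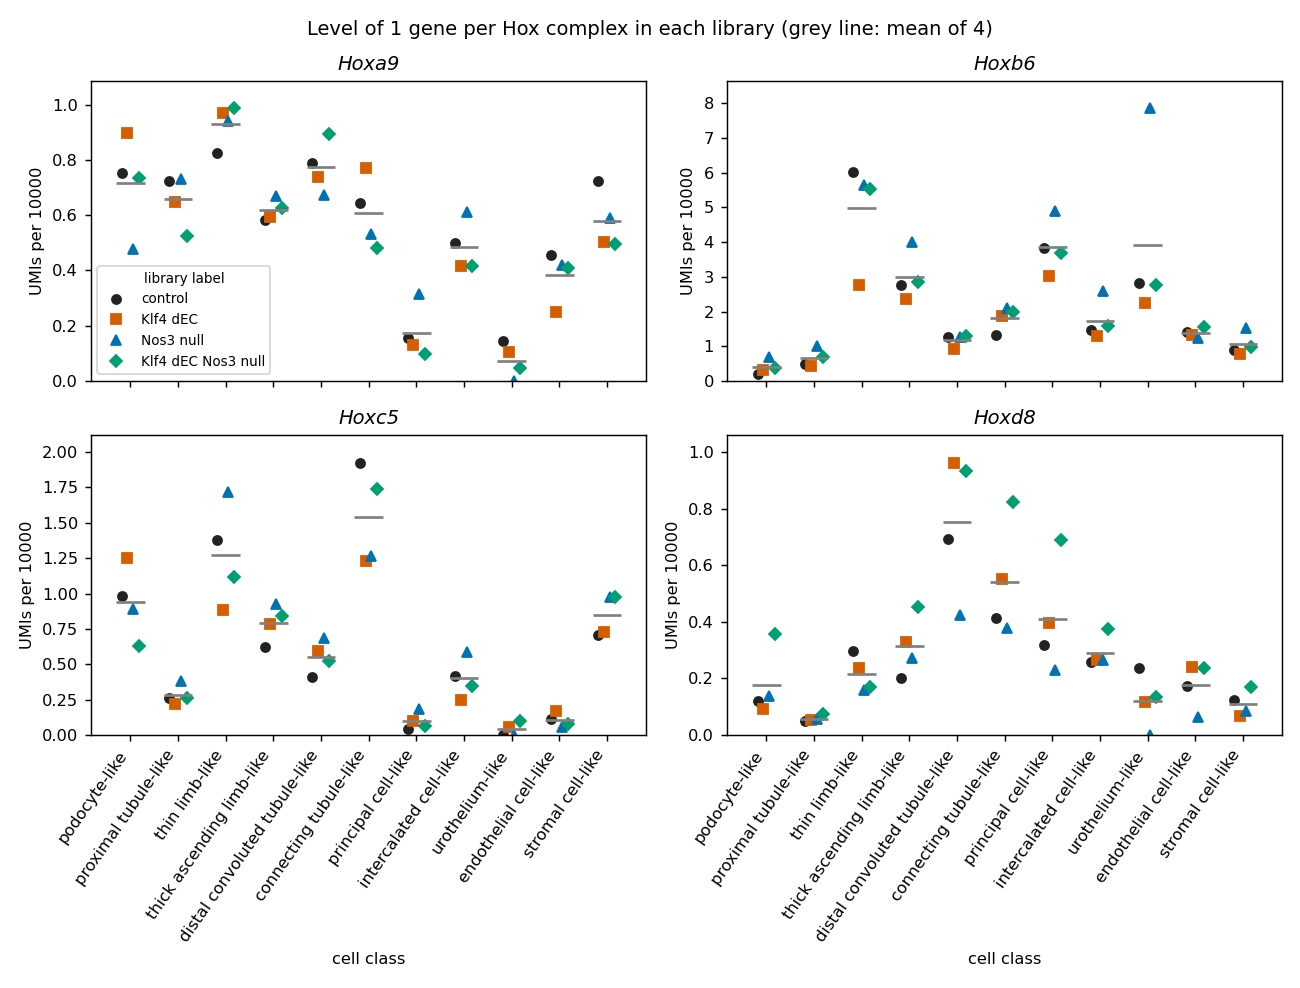
Levels of Hoxa9, Hoxb6, Hoxc5 and Hoxd8 in UMIs per 10000 (vertical axes, from 0) in 11 named cell classes (horizontal axis), with 1 point per library and a grey line for the mean of 4. Hoxa9 and Hoxc5 sit below 0.32 in every principal cell-like library, where Hoxb6 sits above 3.0. The urothelium-like Nos3 null point of Hoxb6, at 7.86, comes from 12 nuclei.

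As shares of the UMIs of all 23 members in a class, which depend on gene length and are set side by side between classes only, the Hoxb genes made up 88.4% in principal cell-like and 26.0% in podocyte-like nuclei (means of 4 libraries). The Hoxc genes made up 36.4% in podocyte-like, 22.3% in connecting tubule-like and 1.2% in principal cell-like nuclei, and the Hoxa genes 39.9% in proximal tubule-like and 2.8% in principal cell-like nuclei. Urothelium-like nuclei, only 12 of them in the Nos3 null library, had 92.1% Hoxb, 0.86% Hoxc and 2.8% Hoxa.

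Differences also ran within classes. Among proximal tubule-like clusters, cluster 1, which is led by Cyp7b1 and holds the organic anion transporter Slc22a19 among its leading genes, had Hoxb6 at 0.799, 0.826, 1.91 and 1.30. The other 4 had means of 0.451 to 0.504, and in each library cluster 1 was above all of them. Hoxb9 was 0.219 ± 0.0799 in cluster 1 against means of 0.0171 to 0.107 in the others. Hoxa9 differed less, with means of 0.572 to 0.729 over the 5 clusters. Among thick ascending limb-like clusters, cluster 19, whose leading genes include Nos1, the neuronal nitric oxide synthase of the macula densa, had Hoxb3 at 2.13 ± 0.469 against 1.23 and 1.24 in clusters 2 and 4. Hoxd8 had its highest cluster mean in cluster 19, at 0.825 ± 0.539, with a range of 0.228 to 1.51 over the libraries. Unnamed cluster 17, which scored for both principal cell and connecting tubule markers, had Hoxc5 at 1.02 ± 0.0778, Hoxa9 at 1.07 ± 0.296 and Hoxd9 at 0.695 ± 0.261, the top cluster for Hoxa9, Hoxd9 and Hoxd10.

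Class differences were counted by a size rule: a log2 ratio of the 2 mean levels, each with 0.1 added, of at least 1 or at most −1 with all 4 libraries on the same side, for genes whose higher mean reached 0.2. The added 0.1 understates the ratios of low genes. In principal cell-like over proximal tubule-like nuclei 12 members entered, 9 were higher and 2 lower, while over all 7567 genes that entered 16.7% were higher and 14.7% lower. Higher were Hoxb3, Hoxb4, Hoxb5, Hoxb6, Hoxb8, Hoxb9, Hoxd3, Hoxd8 and Hoxd9, and lower were Hoxa7 and Hoxa9. The largest ratios of members were 2.95 ± 0.32 for Hoxb9 and 2.87 ± 0.22 for Hoxb3 (SD over libraries, n = 4), and the lowest were −1.56 ± 0.26 for Hoxa7 and −1.47 ± 0.35 for Hoxa9. The median of the 12 was 1.78 against 0.15 over all genes. Hoxc5 had a ratio of −0.95 and did not pass. In the Nos3 null library the Hoxa9 ratio was −1, against −1.68 to −1.70 in the others. Without that library 12 of the members passed. The median gene of at least 0.5 stood at 0.10 here, and rescaling to it also gave 12.

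In thick ascending limb-like over proximal tubule-like nuclei, 8 of 11 members were higher and 0 lower (all genes 13.9% and 14.6%). They were Hoxb3, Hoxb4, Hoxb5, Hoxb6, Hoxb9, Hoxc4, Hoxc5 and Hoxd8, from 1.22 for Hoxc5 to 2.07 for Hoxb9. Hoxa7 and Hoxa9 had ratios of 0.02 and −0.08. In principal cell-like over thick ascending limb-like nuclei, 2 of 13 were higher (Hoxb3 at 1.15, Hoxd3 at 1.44) and 4 lower (Hoxa7, Hoxa9, Hoxc4 at −2.19 and Hoxc5 at −2.18), where all genes gave 8.61% and 6.61%.

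Podocyte-like over proximal tubule-like nuclei gave 2 of 7 higher, Hoxc4 at 1.57 ± 0.68 and Hoxc5 at 1.44 ± 0.51, and 0 lower (all genes 11.8% and 19.7%). The median gene was at −0.18 there among genes of at least 0.5. Endothelial cell-like over proximal tubule-like nuclei gave 1 of 7 higher, Hoxb3 at 1.34, and 1 lower, Hoxa7 at −1.01 (all genes 19.5% and 14%). The endothelial shares lie near the background, and the counts there moved with single libraries: 5 members passed without the Nos3 null library and 1 without Klf4 dEC Nos3 null. Endothelial cell-like nuclei held a proximal tubule marker sum of 53.3 in the Nos3 null library against 17.2 to 26.1 in the others, and its part in the result was not tested.

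The next comparisons were added after the values were seen. In connecting tubule-like over principal cell-like nuclei, 4 of 13 members were higher and 2 lower (all genes 4.43% and 9.27%). Hoxc5 was higher by a log2 ratio of 3.05 ± 0.72 and Hoxc4 by 2.90 ± 0.28, with Hoxa9 at 1.37 and Hoxa7 at 1.12, and lower were Hoxb9 at −1.70 ± 0.59 and Hoxb6 at −1.04 ± 0.36. In the Nos3 null library Hoxa7 stood at 0.58 and Hoxa9 at 0.60, and without that library 5 members passed. The sum of 5 connecting tubule markers was 587 to 801 in the first class and 12.5 to 29.7 in the second. Between the intercalated cell-like clusters 16, led by Kit, and 14, led by the chloride-bicarbonate exchanger Slc26a4, 0 of 12 members passed in either direction (all genes 3.04% and 3.47%), and no test was run; without the Nos3 null library 2 passed. Hoxb9 came nearest at 0.85 ± 0.64.

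**Figure D3:**
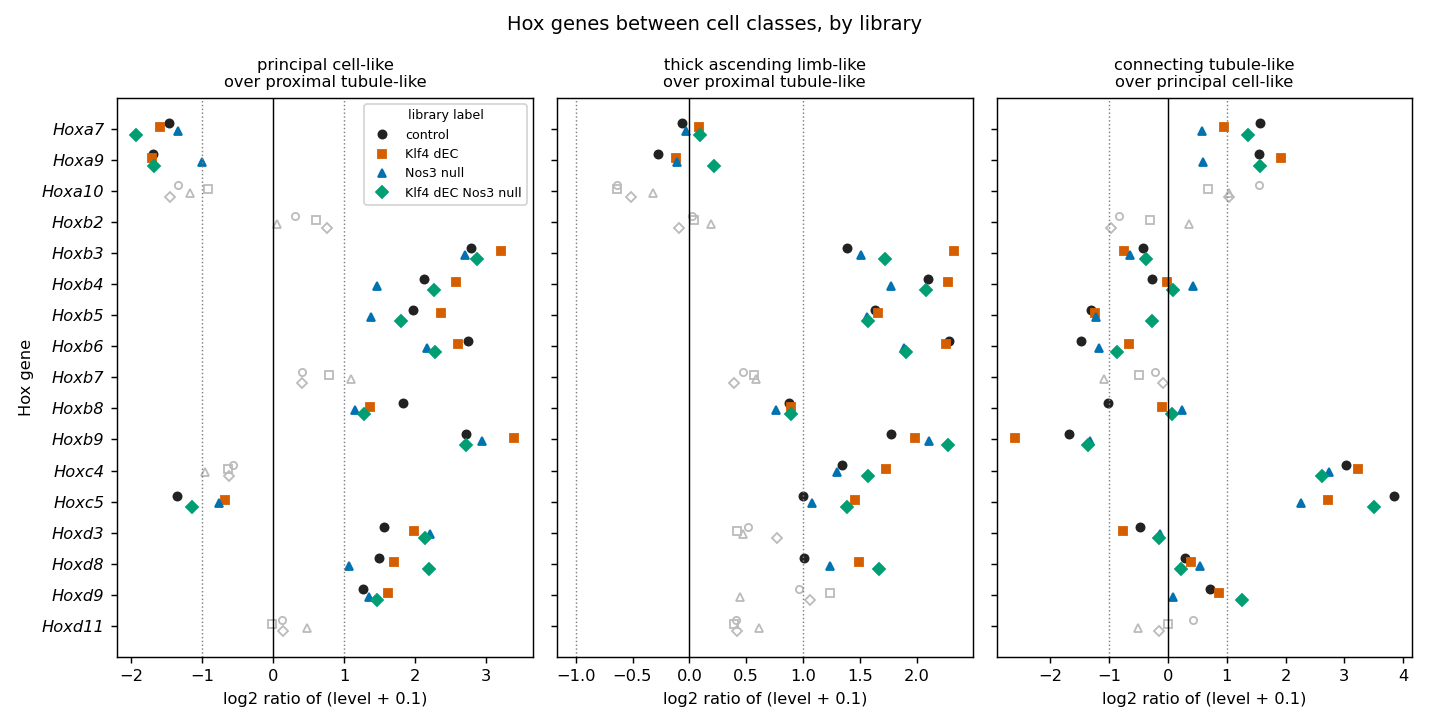
Log2 ratios of (level + 0.1) between 2 cell classes (horizontal axes) for 17 Hox genes (vertical axis), with 1 point per library. Open grey points are genes whose higher class mean is under 0.2 UMIs per 10000, and dotted lines mark −1 and 1. Hoxa7 and Hoxa9 lie left of 0 and the Hoxb genes that entered right of 0 in the principal cell-like comparison, while Hoxc4 and Hoxc5 lie beyond 2 in all libraries of the connecting tubule-like comparison.

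Members of a complex were alike across the tissue to different degrees. Over 20 clusters with at least 50 nuclei in every library, log2 levels of 17 genes, averaged over libraries, gave 38 pairs within a complex. Their median Pearson r was 0.83 (0.06 to 0.99), and 38 of 38 were above 0. In single libraries some of these pairs fell below 0, the lowest being Hoxb2 with Hoxb7 at −0.51. The 98 pairs between complexes had a median of 0.25 (−0.59 to 0.88), with 64 above 0. The points share libraries, depth and the clustering, pairs share genes, and overlapping spans can raise r, so no p is given. The highest pair was Hoxb5 and Hoxb6 at 0.99 (0.93 to 0.97 in single libraries), and Hoxc4 and Hoxc5 stood at 0.96. Hoxa with Hoxb genes had a median of −0.22 over 24 pairs, of which 2 were above 0. Of the pairs within a complex, 28 were Hoxb pairs, with a median of 0.83, while the 6 Hoxd pairs had 0.52 and the 3 Hoxa pairs 0.51. Hoxb with Hoxd genes had a median of 0.62 over 32 pairs, above that of the Hoxd genes among themselves. The Hoxd pairs with Hoxd11 stood at 0.06, 0.21 and 0.27, and the other Hoxd pairs at 0.77, 0.79 and 0.91.

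**Figure D4:**
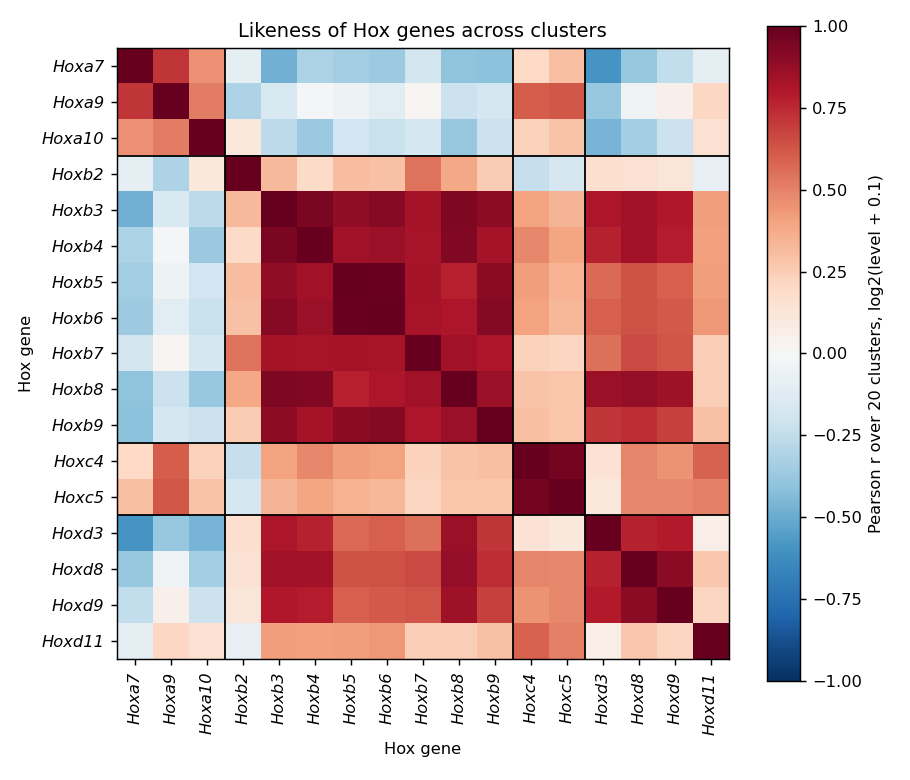
Pearson r between 17 Hox genes (both axes) over 20 clusters, from log2(level + 0.1) of library means, with black lines between complexes. The Hoxb block is red throughout, the block of Hoxa with Hoxb is mostly blue, and Hoxd3, Hoxd8 and Hoxd9 are red with most Hoxb genes.

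Among 11558 genes reaching 0.2 in a cluster, the 5 most like Hoxb6 over the 23 clusters were Hoxb5 (r = 0.98), Hoxb9 (0.91), Rufy2 (0.88), Map2 (0.88) and Patz1 (0.88). Map2 encodes a microtubule-associated protein and Patz1 a zinc-finger transcription factor. For 3 genes chosen after their values were seen, the most like was Hoxc4 for Hoxc5 (0.92), Sacm1l and then Hoxa7 for Hoxa9 (0.81 and 0.80), and Slit2 for Hoxd8 (0.92).

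The non-coding genes of the complexes did not all follow their neighbors. Hoxb3os, antisense to Hoxb2 and part of Hoxb3, was 0.920, 0.722, 1.03 and 0.943 in proximal tubule-like nuclei and 0.410, 0.351, 0.115 and 0.336 in principal cell-like nuclei. It was therefore lower (log2 ratio −1.32) where Hoxb3 was higher. Hoxb5os and Hoxd3os1 were higher in principal cell-like than in proximal tubule-like nuclei, by 2.41 and 2.51. Hoxaas3 reached 0.270 ± 0.114 in thin limb-like nuclei, Hotairm1 reached 0.194 in cluster 12, and Hotair was above 0 in 2 of 92 columns.

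The DNA-binding partners of HOX proteins were counted in the same way. Of 11 TALE genes, 5 entered the principal cell-like over proximal tubule-like comparison, with 1 higher (Pbx3, 1.05), 1 lower (Meis1, −1.05) and a median of −0.01. These shares lie near the 16.7% and 14.7% of all genes. In podocyte-like over proximal tubule-like nuclei 4 of 7 were higher (Pbx2, Pbx3, Meis2 and Pknox2) and 0 lower, where all genes gave 11.8% and 19.7%. Meis1 and Meis2 were among those higher in endothelial cell-like nuclei, with Meis2 at 59.0 against 0.305 in proximal tubule-like nuclei. Pbx3 was 0.355 ± 0.173 in connecting tubule-like against 2.16 ± 0.182 in principal cell-like nuclei. Of 18 Polycomb and trithorax genes, 14 entered the principal cell-like over proximal tubule-like comparison, 1 was higher, the Polycomb ubiquitin ligase Rnf2 at 1.05, and 0 were lower, both under the shares of all genes. That median was 0.41.

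Of 27 transcription factors of the nephric lineage, 25 were in the table. In principal cell-like over proximal tubule-like nuclei 9 of the 15 that entered were higher and 3 lower (all genes 16.7% and 14.7%), with a median of 1.25. Higher were Pax2 and Pax8, paired-box factors of the kidney lineage, Gata2, Gata3, Emx2, Tfap2a, Tfap2b, Pou3f3 and Tbx2. Hnf4a, itself a proximal tubule marker used for naming, and Sall1 were among those lower. Gata3, itself among the principal cell markers used for naming, stood at 4.54 against 0.0345. In connecting tubule-like over principal cell-like nuclei, where Hoxc4 and Hoxc5 were higher, 3 of 14 were higher and 5 lower (all genes 4.43% and 9.27%). Higher were Emx1, Lhx1 and Sall1, and lower were Pax2, Pax8, Gata2, Gata3 and Emx2.

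Between libraries, members were compared within 10 classes with at least 50 nuclei in every library, by a log2 ratio past 1 in either direction among pairs of gene and class whose higher level reached 0.5. The 5 comparisons share libraries, so their counts are not independent. For Klf4 dEC over control, 59 pairs entered, 0 were higher and 1 lower (all genes 1.78% and 1.4%). That pair was Hoxb6 in thin limb-like nuclei, 2.78 against 6.02, a log2 ratio of −1.09 with a 95% counting interval of −1.52 to −0.72. Intervals here are exact binomial and belong to the ratio without the added 0.1, so they are not centred on the printed log2 ratio. They hold the counting error and nothing of the spread between mice or preparations.

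In Nos3 null over control, 3 of 65 pairs were higher and 2 lower (all genes 6.07% and 4.49%). Higher were Hoxc4 in stromal cell-like nuclei, 1.42 against 0.455 (1.45, 0.79 to 2.58), Hoxb6 in podocyte-like nuclei, 0.687 against 0.205 (1.37, 0.51 to 3.15), and Hoxa7 in intercalated cell-like nuclei, 0.599 against 0.189 (1.28, 0.75 to 2.62). Lower were Hoxb3 in thin limb-like nuclei, 1.61 against 3.84 (−1.20, −1.95 to −0.61), and Hoxb4 in endothelial cell-like nuclei, 0.371 against 0.925 (−1.12, −2.28 to −0.43). Those shares lie near or under the background of this library.

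In Klf4 dEC Nos3 null over control 0 of 66 pairs passed in either direction (1.9% and 1.33%), and over Klf4 dEC 0 of 63 (2.01% and 1.83%). Over Nos3 null, 3 of 68 were higher and 1 lower (5.78% and 6.2%): Hoxd9 in connecting tubule-like nuclei at 1.32, Hoxd8 in principal cell-like nuclei at 1.26, Hoxb5 in connecting tubule-like nuclei at 1.06 and Hoxc4 in stromal cell-like nuclei at −1.24. The medians of the member pairs were −0.09, 0.01, 0.09, −0.01 and 0.20 in the order of the plot of library ratios, against −0.03, 0.06, 0.07, 0.03 and 0.11 over all genes.

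**Figure D5:**
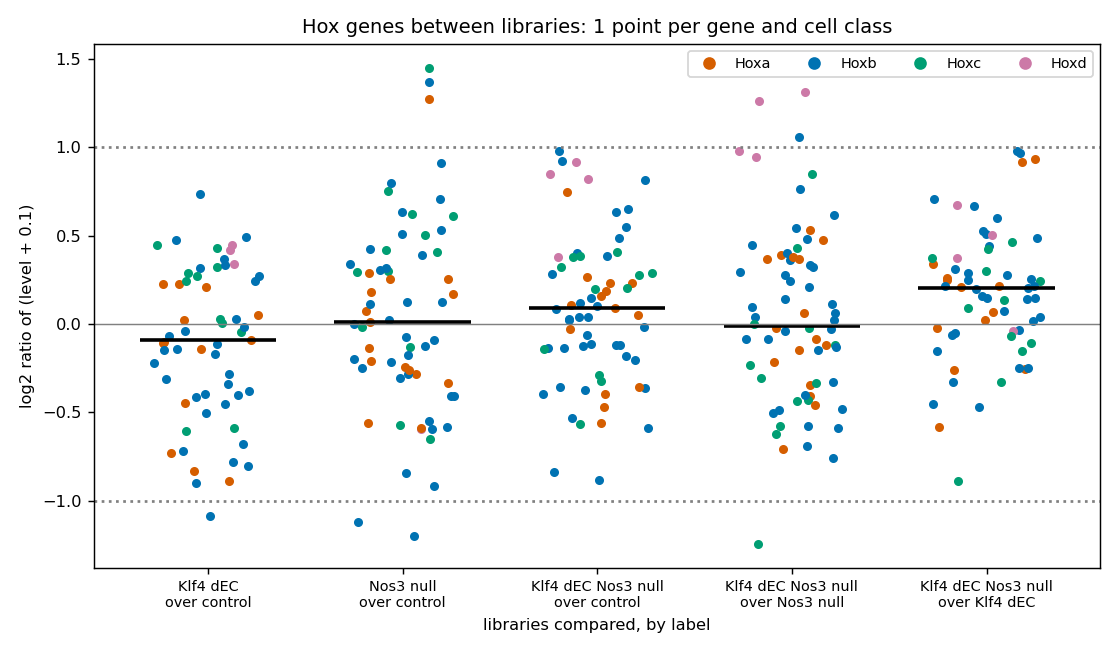
Log2 ratios of (level + 0.1) between 2 libraries (vertical axis) in 5 comparisons (horizontal axis), with 1 point for each pair of Hox gene and cell class, colored by complex, and black bars at the medians of −0.09, 0.01, 0.09, −0.01 and 0.20. Dotted lines mark −1 and 1. Most points lie between these lines, and 5 lie outside in Nos3 null over control.

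Some members kept a library order over classes. Hoxb6 was highest in the Nos3 null library in 7 of 10 classes. It was also lowest in Klf4 dEC in 7 of 10, without a share over all genes to set this against. In proximal tubule-like nuclei it was 1.01 in Nos3 null and 0.491 in the control (log2 ratio 0.91 with 0.1 added, interval 0.90 to 1.19 without it), and in thick ascending limb-like nuclei 4.00 against 2.78 (0.51, 0.39 to 0.66). Proximal tubule-like nuclei of the Nos3 null library also had the highest sum of 5 connecting tubule markers, 10.1 against 1.16 to 1.73. For 6 thick ascending limb markers it was 9.61 against 3.49 to 5.13, and for 8 principal cell markers 0.413 against 0.405 to 0.472. Their part in the Hoxb6 values was not tested. Hoxc4 and Hoxc5 were also highest in Nos3 null in 7 of 10 classes, and Hoxd8 in Klf4 dEC Nos3 null in 7 of 10. Of 10 members with a mean of at least 0.2 over the classes, 3 were highest in Nos3 null in at least 7 classes, where 15.9% of 7152 genes were. For Klf4 dEC Nos3 null it was 1 of 10 against 9.87%, for the control 0 against 1.02% and for Klf4 dEC 0 against 2.7%. In the Nos3 null library cluster 4 held more thick ascending limb-like nuclei than cluster 2 (524 against 459), while in the other 3 libraries cluster 2 held more.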

How the data were processed

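Nuclei of renal cortex were profiled in 1 library for each of 4 genotypes. The authors used build mm10 with Cell Ranger and Seurat, per the submitters' processing notes, which carry no versions. Settings of the clustering, the treatment of doublets and the strand of counting were likewise absent. The deposited table holds signal values made by the authors, the mean normalised level of each gene per cluster and library. Every column summed to 10000, so a value was read as the mean share of a nucleus's UMIs per 10000. There were 0 other columns of per-sample values.

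Numbers of nuclei and effective UMIs were inferred from the reciprocals of the lowest values (tolerance 1e-12, a number accepted if it divided at least 85% of them). On simulated data with 21046 genes, 16 of 16 nuclei numbers were exact, effective UMIs were off by at most 6.45%, and the 95% intervals covered 96.2% to 98.2%. The simulation used a fixed spread of UMI numbers between nuclei, so it does not cover clusters of wider spread. Clusters were named from marker genes with a score of at least 0.5, a lead of 0.5 and 3 markers detected, limits set after the table was seen. Levels were averaged within a library over clusters by nuclei, then over the 4 libraries. Ratios were log2 of levels plus 0.1, with a filter of 0.2 between classes and 0.5 between libraries. Intervals were exact Poisson for levels and Clopper-Pearson for ratios without the added 0.1, and they and the floor of 3 counts cover counting error only. Every Hox gene reaching 0.2 in a cluster was named with values, the others by their highest level, and in comparisons those past the limit, with the 5 genes most like Hoxb6. Members, lists and comparisons were chosen with earlier results of these data known. The connecting tubule and intercalated cell comparisons and the count of library orders were added after values were seen. Alternatives changed the pseudocount, filter, scaling, weighting and libraries used. Gene spans came from the GENCODE annotation of GRCm38 and promoters from RefSeq. Python 3.11.15, numpy 2.4.6, scipy 1.17.1, pandas 2.3.3 and matplotlib 3.10.9 were used. Values of a few genes are not reported here.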

Additional observations from a re-analysis of the deposited data

How the results depend on the processing

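One library per genotype sets the main limit: no difference between genotypes can be separated from a difference between mice or preparations, and the SDs mix both. Clusters were made from the same genes, so class differences are descriptions. Levels under the floor of 3 counts, from 0.00062 to 0.106 per 10000 by class, could not be told from 0. Between genotypes no paired analysis was possible, because each genotype has 1 library and its replicate number is only a name. Class comparisons took the library as the pair in the same-side rule. No single named gene reversed its direction under any alternative that was run. Over the results that answer a comparison, 386 alternative values stayed near the main value, 28 were larger, 23 smaller and 1 moved. Counts of genes past the limit were judged by their size with both directions pooled, so they show no direction. Over single named genes, 278 kept their side and 37 fell short of the limit.

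A pseudocount of 0.5 lowered the number of genes past the limit to 1217 in principal cell over proximal tubule (4 Hox members), 1021 in thick ascending limb over proximal tubule (4), 544 in principal cell over thick ascending limb (2), 1188 in podocyte over proximal tubule (0), 1337 in endothelial cell over proximal tubule (0), 442 in connecting tubule over principal cell (3) and 192 between the intercalated cell clusters. Between libraries it left 283 pairs in Klf4 dEC over control (0 Hox), 1719 in Nos3 null over control (2) and, for Klf4 dEC Nos3 null, 273 over control, 2057 over Nos3 null (0) and 383 over Klf4 dEC. A pseudocount of 0.02 gave 6 Hox members in endothelial cell over proximal tubule, 2 Hox pairs in Klf4 dEC over control, and 3 each in Klf4 dEC Nos3 null over control and over Klf4 dEC. A class filter of 0.5 left 7 Hox members in principal cell over proximal tubule.

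In the same order of library comparisons, a filter of 0.2 gave 2764, 7966, 2984, 9578 and 3514 pairs, of which 5, 9, 4, 11 and 3 were Hox. No filter gave 3736, 10169, 3967, 11946 and 4598, of which 5, 10, 6, 15 and 5 were Hox. The pseudocount and the filter act by construction on low genes. Weighting clusters equally put the Hoxd sum in thick ascending limb at 0.878 against 0.619, with cluster 19 counting more. Leaving out 1 library moved the Hox count of endothelial cell over proximal tubule between 1 (without Klf4 dEC Nos3 null) and 5 (without Nos3 null). Between the intercalated cell clusters it moved the Hox count between 0 and 2 (1 without control, 2 without Nos3 null) and the count of all genes between 448 and 730, the latter without Nos3 null. The number of Hox genes detected stayed between 21 and 22. The cause of these library dependences was not tested.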

Other observations

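Among the nephric lineage factors, 14 entered the podocyte-like over proximal tubule-like comparison, of which 3 were higher and 7 lower (all genes 11.8% and 19.7%). Higher were Wt1, itself a podocyte marker used for naming, Eya1 and Foxd1, and Pax2, Pax8, Emx2, Hnf4a and Tbx2 were among those lower. In thick ascending limb-like over proximal tubule-like nuclei, 5 of 13 were higher (Pax2, Tfap2b, Irx1, Irx2 and Pou3f3) and 4 lower, among them Lhx1, Hnf4a and Tbx2 (all genes 13.9% and 14.6%). Hnf4a, lower in both comparisons, is itself a proximal tubule marker used for naming. Between the intercalated cell-like clusters, where no Hox member passed, the HOX partner Pbx3 was 3.85 ± 1.48 in cluster 16 and 1.09 ± 0.226 in cluster 14 (SD, n = 4). These counts follow the same size rule and have no test.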
